A study of Mus musculus with 2 samples.

Results

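The genes described here are 39 genes of DNA replication and mitosis, taken by symbol from a list and not by their values, out of 32285 genes in the count tables. The 19 genes of the S phase list act in DNA replication, the 19 genes of the mitotic list act in G2 phase and mitosis, and Stmn1, a tubulin regulator, was kept apart. All 39 were detected, with between 695 and 22098 UMIs (unique molecular identifiers, each counting 1 captured transcript molecule) per gene over both libraries. The cells were CD45+ cells, that is leukocytes, sorted from the tumor on the left flank of C57BL/6 mice that carried subcutaneous MC38 colon carcinoma tumors on both flanks. In all mice the right tumor alone was heated by microwave ablation (MWA), so the sampled tumor was the distant, untreated one. The MWA group received ablation. In its treatment experiments the paper gives this group an isotype control antibody as well, and it does not repeat this for the sequenced mice. The MWA plus TIGIT group received ablation and, from the next day, intraperitoneal blocking antibody against TIGIT, an inhibitory receptor of T and NK cells. Tumors were taken on day 8 after ablation, and each group was a single 10x Genomics library (n = 1, from a number of mice that the sources used here do not give). Without replicates the groups could not be tested against each other, and treatment, mice and library cannot be told apart.

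A cell that is about to divide first loads the MCM helicase onto replication origins, then copies its DNA in S phase, and then condenses, aligns and separates its chromosomes in mitosis. The genes of these steps are switched on in turn: transcription of S phase genes is driven largely by E2F factors, whereas many mitotic genes are held silent until G2 phase by the DREAM complex through a short promoter element named CHR and are activated together with the CCAAT-binding factor NF-Y. In tumors such transcripts are found in dividing lymphocytes, in particular antigen-stimulated T cells, and in macrophages that renew themselves in the tissue.

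Promoters of the members are shown first, because the members fall into S phase and mitotic lists that differ in these letters as well as in the cells that hold their UMIs. Each line gives 200 bases before and 20 bases after the annotated start of a gene, 5′ to 3′ on the strand of the gene, in lower case with searched motifs in capitals (RefSeq sequences, build GRCm38.p6). Mcm6 encodes a subunit of the MCM helicase (chr1:128359686-128359905, minus strand), and Pclaf encodes a PCNA-binding factor of the replication fork (chr9:65890123-65890342, plus strand). Top2a encodes topoisomerase II alpha (chr11:99024170-99024389, minus strand), Ube2c the ubiquitin-conjugating enzyme of the anaphase-promoting complex (chr2:164769729-164769948, plus strand), Ccnb2 cyclin B2 (chr9:70421535-70421754, minus strand) and Cdc20 an activator of the anaphase-promoting complex (chr4:118437324-118437543, minus strand).
Mcm6: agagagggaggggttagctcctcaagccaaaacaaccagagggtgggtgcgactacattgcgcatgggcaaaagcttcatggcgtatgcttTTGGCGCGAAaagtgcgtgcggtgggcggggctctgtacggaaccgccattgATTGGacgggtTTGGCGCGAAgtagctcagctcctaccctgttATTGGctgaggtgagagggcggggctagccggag
Pclaf: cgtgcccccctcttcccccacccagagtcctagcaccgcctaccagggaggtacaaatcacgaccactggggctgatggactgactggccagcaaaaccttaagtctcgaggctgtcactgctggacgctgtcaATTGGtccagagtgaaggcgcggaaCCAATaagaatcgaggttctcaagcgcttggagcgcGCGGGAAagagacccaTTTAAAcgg
Top2a: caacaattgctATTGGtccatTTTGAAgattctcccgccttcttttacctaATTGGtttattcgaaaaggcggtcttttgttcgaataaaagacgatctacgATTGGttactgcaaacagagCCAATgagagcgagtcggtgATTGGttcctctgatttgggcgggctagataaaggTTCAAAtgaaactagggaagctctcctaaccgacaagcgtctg
Ube2c: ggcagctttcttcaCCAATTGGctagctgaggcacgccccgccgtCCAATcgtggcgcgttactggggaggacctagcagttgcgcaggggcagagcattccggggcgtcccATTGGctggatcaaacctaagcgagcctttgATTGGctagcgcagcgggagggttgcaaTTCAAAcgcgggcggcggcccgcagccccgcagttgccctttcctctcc
Ccnb2: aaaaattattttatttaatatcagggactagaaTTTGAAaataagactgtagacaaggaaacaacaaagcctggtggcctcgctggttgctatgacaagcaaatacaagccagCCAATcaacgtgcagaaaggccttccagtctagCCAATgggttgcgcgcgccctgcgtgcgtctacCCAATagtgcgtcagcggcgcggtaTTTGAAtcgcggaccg
Cdc20: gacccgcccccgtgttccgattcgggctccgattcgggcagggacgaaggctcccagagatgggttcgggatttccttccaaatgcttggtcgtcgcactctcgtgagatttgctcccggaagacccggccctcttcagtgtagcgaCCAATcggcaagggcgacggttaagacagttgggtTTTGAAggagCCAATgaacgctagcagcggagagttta

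The motifs searched on both strands were CHR as TTTGAA or TTTAAA, the CCAAT box as CCAAT, and an E2F-type site as TTCCCGC or TTGGCGC or TTCGCGC or TTGCCGC. The letters TTTAAA are their own reverse complement, and TTGGCGC overlaps the reverse strand of TTCGCGC in the 10-letter runs of Mcm6. Of the 39 members, 33 had a promoter in the RefSeq table (37 promoters of 300 bases, 250 before and 50 after the start, since 3 genes had several), and Mcm4, Ccne2, Ccna2, Tpx2, Aurkb and Stmn1 had none there. CHR letters were in 15 of 16 promoters of mitotic members (93.8%), in 6 of 21 promoters of S phase members (28.6%) and in 27.6% of all 32851 promoters of the same length. A CHR together with at least 2 CCAAT boxes was found in 75% of the mitotic, 14.3% of the S phase and 3.13% of all promoters. E2F-type letters went the other way, with 71.4% of the S phase promoters, 25% of the mitotic promoters and 9.57% of all promoters. CCAAT boxes alone were in 87.5%, 57.1% and 37.4% of these promoters. These matches describe letters and not bound sites.

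The 2 libraries held 10217 and 10190 barcodes with a median of 5627 and 6586 UMIs, and 9231 (MWA) and 9127 (MWA plus TIGIT) cells were kept. Cells were clustered without 1023 features, that is the members, other cell cycle and histone genes and all genes whose level followed the members, so that the types were not chosen by the genes described here, and types carry the ending "-like" because they rest on marker genes. CD8 T-like cells numbered 1714 and 1873, conventional CD4 T-like cells 1076 and 881, regulatory T-like cells 760 and 618, and TAM-like cells (tumor-associated macrophages) 3852 and 4008. Ptprc, the gene of CD45 by which the cells were sorted, was present in every type and library at between 343 and 1087 CPM (UMIs of the gene per 1000000 UMIs of the cells of a type). Summed Cd8a and Cd8b1 were at 1275 and 1468 CPM in CD8 T-like cells against 33.9 and 30.4 CPM in conventional CD4 T-like cells, Foxp3 was at 439 and 510 CPM in regulatory T-like cells, and the 3 C1q genes were at 14316 and 15358 CPM in TAM-like cells. CD8 T-like cells also carried 286 and 280 CPM of C1q transcripts, which were close between the libraries, and the part of transcripts of other cells in the results was not tested. The libraries shared 37 barcodes, 29 of them among kept cells.

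DNA replication and mitosis transcripts were most concentrated in CD8 T-like cells in both libraries, for clusters made without cell cycle genes. This depended on that choice: with these genes left in the clustering, 25 of the members were at least 2-fold lower in CD8 T-like than in TAM-like cells and 1 was higher. In the clustering without cell cycle genes, 22% of all genes were lower and 13.3% higher at this fold. The shares of all genes with them left in are not given here. The summed S phase list was at 1281 CPM in the MWA group (95% exact Poisson interval 1256 to 1306), and the MWA plus TIGIT group had 1397 CPM (1372 to 1422). In TAM-like cells it was at 637 and 674 CPM, and in conventional CD4 T-like cells at 887 and 1100.4 CPM. Regulatory T-like cells were at 904 and 772 CPM, so that both CD4 classes lay between TAM-like and CD8 T-like cells. All intervals here cover counting error only, and they treat UMIs as independent although most mitotic UMIs sat in few cells.

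The mitotic list was highest in CD8 T-like cells as well, and among these 4 types its order below them departed from that of the S phase list in the MWA group but not in the MWA plus TIGIT group. It was at 851 and 1068 CPM in CD8 T-like cells, at 745 and 735 CPM in regulatory T-like cells, at 671 and 692 CPM in TAM-like cells and at 448 and 855 CPM in conventional CD4 T-like cells. Low levels were measured in monocyte-like cells (125 and 103 CPM), and B-like cells were at 144 and 118 CPM. Mature neutrophils do not divide, and the neutrophil-like cells served as background: they held 5 mitotic UMIs in 96 cells of the MWA group and 28 in 89 cells of the MWA plus TIGIT group, of which 22 sat in 1 cell. Genes of the Cd3 complex were at 0 and 257 CPM in these neutrophil-like cells, and the part of T cell transcripts in their mitotic UMIs was not tested.

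**Figure D1:**
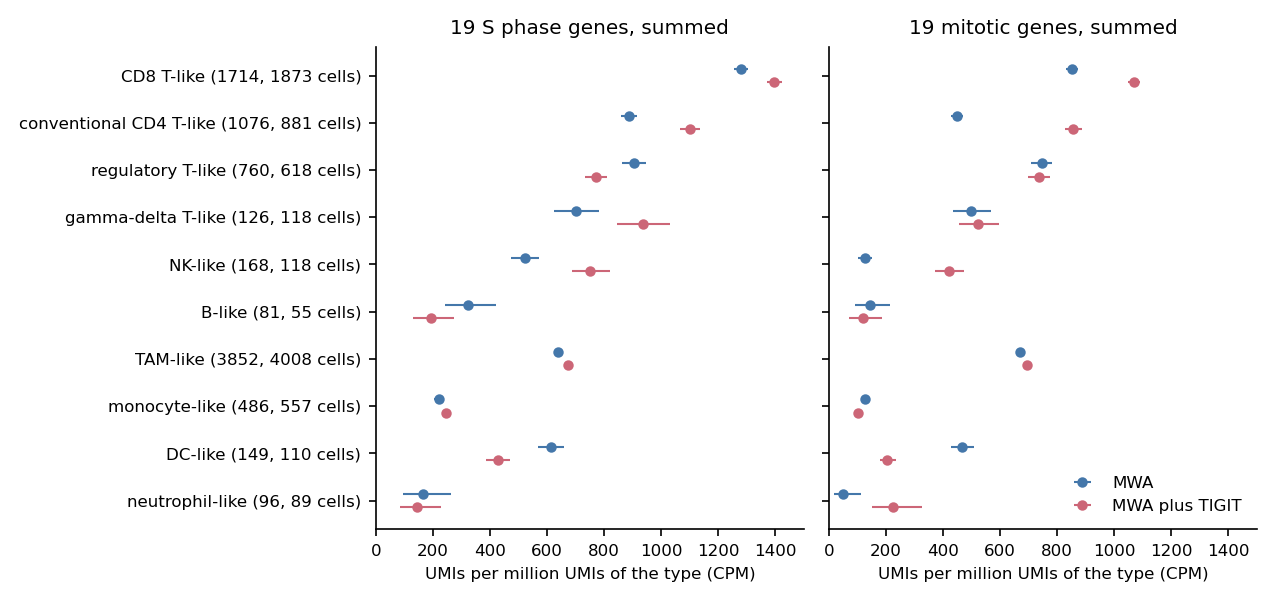
Summed level (CPM, linear axes) of the 19 S phase genes (left) and the 19 mitotic genes (right) in 10 cell types of the MWA (blue) and MWA plus TIGIT (red) libraries; bars are 95% exact Poisson intervals. CD8 T-like cells are highest on the left at 1281 and 1397 CPM, and conventional CD4 T-like cells show a wide gap between the libraries on the right, at 448 and 855 CPM.

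The balance of the lists differed between CD8 T-like and TAM-like cells. Mitotic UMIs per S phase UMI were 0.665 (95% exact conditional binomial interval 0.645 to 0.685) and 0.765 (0.744 to 0.786) in CD8 T-like cells. In TAM-like cells the ratio was 1.05 and 1.03, so that mitotic and S phase UMIs were about equal in number. Regulatory T-like cells came near this at 0.824 and 0.953. Monocyte-like cells (0.565 and 0.419) and DC-like cells (0.762 and 0.479) were lower in both libraries. Neutrophil-like cells, with only 5 and 28 mitotic UMIs, were at 0.294 and 1.56. TAM-like cells made up 41.7% and 43.9% of the cells and held 52.0% and 57.0% of the S phase UMIs, but 64.1% and 63.9% of the mitotic UMIs. They also held 60.6% and 65.4% of all UMIs, since they were deeper than the lymphocytes (medians of 8531 and 10533 UMIs against 4034 and 3811 in CD8 T-like cells). CD8 T-like cells, with 14.1% and 12.7% of all UMIs, held 24.3% and 22.9% of the S phase UMIs and 18.9% and 19.2% of the mitotic UMIs.

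Within single types, members of the same list differed in the class of cells where they were highest. For each member, cells were sorted by the UMIs of the other members into S phase rich (at least 6 S phase and at most 1 mitotic UMI), rich in both (at least 6 and at least 12), mitotic rich (at least 12 mitotic and fewer than 6 S phase UMIs) and neither (at most 1 of each). These thresholds are in UMIs per cell, so they select more of the deeper TAM-like cells, and both libraries were pooled. S phase rich and mitotic rich cells are by rule poor in the other list. Low levels of members of that other list there are thus largely set by the sorting. For Mcm6, 276 S phase rich, 292 both rich, 32 mitotic rich and 1753 neither cells of the CD8 T-like type were compared. Cells between these thresholds were in no class.

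The MCM helicase genes, whose products unwind DNA at origins, were high in S phase rich cells and low in mitotic rich cells, and 5 of the 6, all but Mcm7, had their highest CD8 T-like level in S phase rich cells. Mcm6 was at 161 CPM in S phase rich, 135 CPM in both rich, 37.5 CPM in mitotic rich and 39.4 CPM in neither CD8 T-like cells. Mcm2 was at 73.5, 48.6, 6.64 and 10.6 CPM in the same order. In TAM-like cells Mcm6 was at 114, 103, 12.4 and 11.9 CPM. Their level in mitotic rich cells was thus near that in cells with hardly any member UMIs, on the basis of 6 Mcm6 UMIs in 32 CD8 T-like cells and 36 in 288 TAM-like cells.

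Genes of nucleotide supply and of the moving fork were instead highest in cells rich in both lists. Tyms, thymidylate synthase, was at 40.4 CPM in S phase rich and 261 CPM in both rich CD8 T-like cells. Rrm2, the regulated subunit of ribonucleotide reductase, was at 3.97 and 237 CPM. In S phase rich cells, where MCM genes were already high, it was thus near its level in the neither class (2.41 CPM). Pclaf went from 40.2 to 1051 CPM between S phase rich and both rich cells and was still at 298 CPM in mitotic rich cells. Pcna, the sliding clamp, was at 143, 331 and 35.9 CPM, and Dut, which removes dUTP, at 332, 582 and 124 CPM in S phase rich, both rich and mitotic rich cells. TAM-like cells showed the same order for Rrm2 (4.49, 110 and 5.26 CPM) and Pclaf (8.86, 579 and 150 CPM).

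Cyclin E and origin licensing genes were sparse. Cdt1, which loads MCM onto origins and is destroyed once S phase begins, was at 33.1 CPM in S phase rich, 38.7 CPM in both rich and 6.95 CPM (1 UMI) in mitotic rich CD8 T-like cells. Ccne2 and Cdc6 had no UMI in the 29 mitotic rich CD8 T-like cells, which allows up to 25.6 CPM of each (exact Poisson), beside 48.1 and 36.1 CPM in both rich cells. In TAM-like cells Cdc6 had 0 UMIs in 281 mitotic rich cells, which allows up to 1.31 CPM, against 147 UMIs (14.6 CPM) in 628 both rich cells.

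Among the mitotic members, cyclin A2, CDK1 and topoisomerase came with S phase genes, whereas genes of late mitosis were highest in cells that had few S phase UMIs. Ccna2 was at 154 CPM in both rich and 118 CPM in mitotic rich CD8 T-like cells, and Cdk1 at 145 and 76.4 CPM. Top2a was at 970 and 452 CPM, after 62.2 CPM in S phase rich cells. Ube2c went from 489 to 1098 CPM, Ccnb2 from 173 to 455 CPM and Cdc20 from 46.6 to 285 CPM between both rich and mitotic rich CD8 T-like cells. Cenpa, the histone H3 variant of centromeres, went from 264 to 764 CPM. Hmmr, a spindle protein, had 0 UMIs in S phase rich cells of both types, which by rule hold hardly any UMIs of the other mitotic members. It had 299 UMIs in 295 both rich CD8 T-like cells and 1021 in 625 both rich TAM-like cells.

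Not every late gene behaved alike in both types. Ube2c was higher in mitotic rich than in both rich CD8 T-like cells (1098 against 489 CPM) but lower in TAM-like cells (242 against 362 CPM). Cdc20 (96.3 against 53.3 CPM), Ccnb2 (262 against 114 CPM) and Cenpa (366 against 201 CPM) were higher in mitotic rich cells there as well. Stmn1, whose product destabilizes microtubules, was at 170, 1403 and 660 CPM in S phase rich, both rich and mitotic rich CD8 T-like cells and at 72.9, 756 and 482 CPM in TAM-like cells. It was thus highest in cells rich in both lists.

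**Figure D2:**
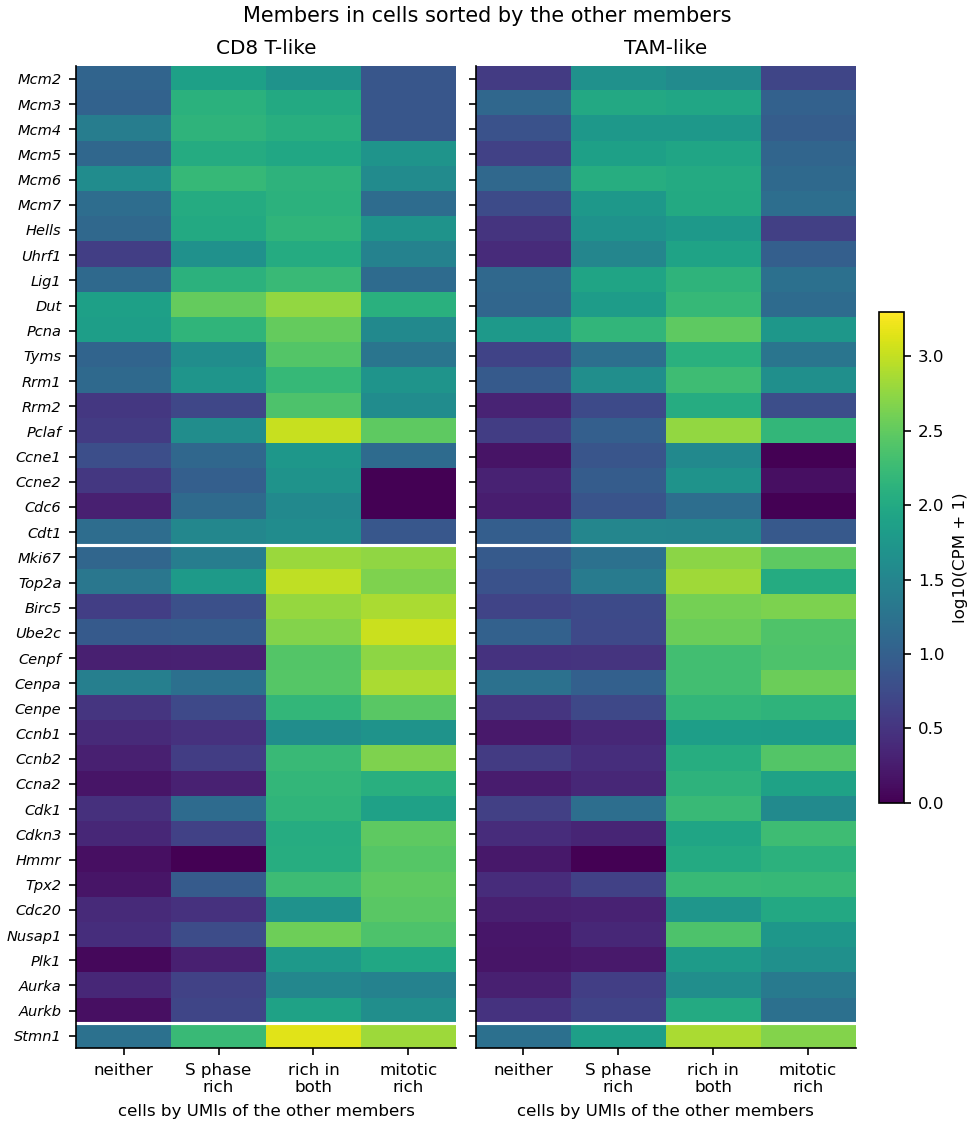
Level of each member (rows, log10 of CPM + 1 by color) in CD8 T-like (left) and TAM-like (right) cells of both libraries, sorted by the UMIs of the other members into neither, S phase rich, rich in both and mitotic rich cells; white lines separate the S phase list, the mitotic list and Stmn1. MCM genes are bright in the S phase rich column (Mcm6 161 CPM in CD8 T-like cells), Rrm2 and Pclaf are bright from the both rich column on, and Cdc20, Ccnb2 and Cenpa are brightest in the mitotic rich column.

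Between CD8 T-like and TAM-like cells the S phase members differed and the mitotic members did so less. At a difference of at least 2-fold in both libraries, 9 of 39 members were higher in CD8 T-like cells, against 13.3% of the 12220 genes compared, and 0 were lower, against 22% of these genes. Of the 9, 8 were of the S phase list: Dut, Tyms, Ccne1, Pclaf, Cdc6, Rrm2, Mcm4 and Hells. The ninth was Stmn1, at 306 and 334 CPM in CD8 T-like against 150 and 167 CPM in TAM-like cells. None of the 19 mitotic members passed in either direction, and the median log2 ratio was 0.88 and 1.01 over the S phase list and 0.10 and 0.37 over the mitotic list. With cell cycle genes left in the clustering this turned round to 1 higher and 25 lower, in 1416 and 1531 CD8 T-like and 3657 and 3783 TAM-like cells. The shares of all genes in that setting are not given here.

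Dut stood furthest apart. It was at 237 CPM (1899 UMIs) and 232 CPM (2003 UMIs) in CD8 T-like cells and at 46.8 and 45.3 CPM in TAM-like cells, a ratio of 5.07 and 5.13 where the summed S phase list had log2 ratios of 1.01 and 1.05. Dut was also at 73.9 CPM in CD8 T-like cells with hardly any other member UMI, against 11.1 CPM in such TAM-like cells, so it was higher in CD8 T-like cells among these cells as well. Pcna differed little, with 135 and 142 CPM against 116 and 113 CPM, and Rrm1 did likewise, with log2 ratios of 0.23 and 0.22. In the other direction Ccnb1, cyclin B1, was lower in CD8 T-like cells than in TAM-like cells (7.62 and 8.94 against 12.1 and 12.3 CPM), with log2 ratios of -0.66 and -0.46 beside 0.34 and 0.63 for the summed mitotic list. The related Ccnb2 was at 30.5 and 39.2 CPM against 28.4 and 30.8 CPM. Processed pseudogenes are annotated for Ccnb1, Ccnb2, Pcna and Tyms, so reads of these members may be shared with copies.

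Against regulatory T-like cells, 2 of 39 members were at least 2-fold higher in CD8 T-like cells in both libraries (3.76% of 9939 genes) and 0 were lower (8.28%). These were Pclaf and Cdc6. With cell cycle genes left in the clustering 0 were higher and 1 lower, and without cells over 5000 UMIs 9 were higher and 1 lower. The shares of all genes in these settings are not given here. Lig1, the DNA ligase that seals Okazaki fragments, was higher in regulatory T-like cells, with 116 and 124 CPM against 65.1 and 79.8 CPM in CD8 T-like cells, whereas the summed S phase list was lower there. Lig1 was at 91.4 CPM in regulatory T-like cells with hardly any other member UMI and at 12.5 CPM in such CD8 T-like cells.

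Inside each type the members marked out some states and not others. The state names below rest on leading genes of the clusters and were set after the clusters were seen. In the CD8 T-like cells, the Ccr2 Gzmk cluster (588 and 768 cells) had an S phase list of 1471 and 1627 CPM and a mitotic list of 1103 and 1334 CPM. The Klrg1 Gzma cluster (191 and 303 cells), whose leading genes held Gzmk as well as Gzma, had 544 and 669 CPM, and 238 and 383 CPM. Between these clusters 28 of 39 members were at least 2-fold higher in the first in both libraries, beside 3.03% of 7799 genes, and 0 were lower, beside 0.539%. Of the 28, 12 were S phase genes, 15 mitotic genes and 1 was Stmn1. Both summed lists were far higher in the first cluster, so this direction is largely set by the choice of the pair. Members could also pass the minimum of UMIs mainly through the cluster where they were high. For Cdc6 and Plk1, both counted, the Klrg1 Gzma cluster lacked UMIs in the MWA group, so no finite ratio could be formed there.

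The exhausted CD8 T-like cluster was named from leading genes such as Ccl1, Nrgn, Gzmf, Rgs16 and Xcl1. The inhibitory receptor genes Pdcd1, Havcr2 and Lag3 were not among its 10 leading genes. Its cells were not low in members: their S phase list was at 1297 and 1716 CPM and their mitotic list at 971 and 1155 CPM. Stem-like CD8 T cells, led by Tcf7 and Lef1, were the lowest CD8 cluster, with 250.1 and 256 CPM for the S phase list and 19 and 50 mitotic UMIs in 133 and 157 cells. Cells of the interferon cluster were at 1037 and 1005 CPM and at 857 and 646 CPM. The Id3 Srm cluster held a high S phase list in both libraries (1523 and 1609 CPM) and a mitotic list of 660 and 1352 CPM. That last gap rested on few cells, because 10 cells held 65.3% of its mitotic UMIs in the MWA plus TIGIT group (38.6% in the MWA group) and a single cell held 269.

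Among macrophages the Mrc1 Gas6 cluster, marked by the mannose receptor gene and genes of apoptotic cell uptake, was the highest in members. Its S phase list was at 958 and 1052 CPM and its mitotic list at 1155 and 1098 CPM, in 1001 and 955 cells. The Ndrg1 Hilpda cluster, whose 10 leading genes began with the heat shock genes Hspb1 and Hspa1b and also held the hypoxia-responsive Ndrg1, Adm and Hilpda, was the lowest of the 5 TAM-like clusters, with 217 and 208 CPM and with 140 and 178 CPM in 720 and 777 cells. In between were the MHC class II cluster (702 and 787 CPM for the S phase list), the interferon cluster (426 and 497 CPM) and the Slc7a2 Arg1 cluster (463 and 446 CPM).

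The Mrc1 Gas6 and Ndrg1 Hilpda clusters had the highest and lowest summed lists of the TAM-like clusters. The direction of member counts between them is therefore largely set by the choice of this pair. At least 2-fold in both libraries, 38 of 39 members were higher in the Mrc1 Gas6 cluster, beside 17.8% of 10650 genes. In the same comparison 0 members were lower, beside 3.51% of genes. The exception was Cdt1, at 21.4 and 20.9 CPM against 15.1 and 14.5 CPM. Top2a was at 156 and 164 CPM against 19.003 and 20.977 CPM. Pcna differed by log2 ratios of 1.05 and 1.07 and Cenpa by 1.56 and 1.05, the smallest mitotic difference, beside 3.04 and 2.63 for the summed mitotic list. Of the other replication genes, 42 of 46 passed in the same direction, and of the other mitosis genes 53 of 59. Ccne1 had 0 and 6 UMIs in the Ndrg1 Hilpda cluster against 108 and 153 in the Mrc1 Gas6 cluster.

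**Figure D3:**
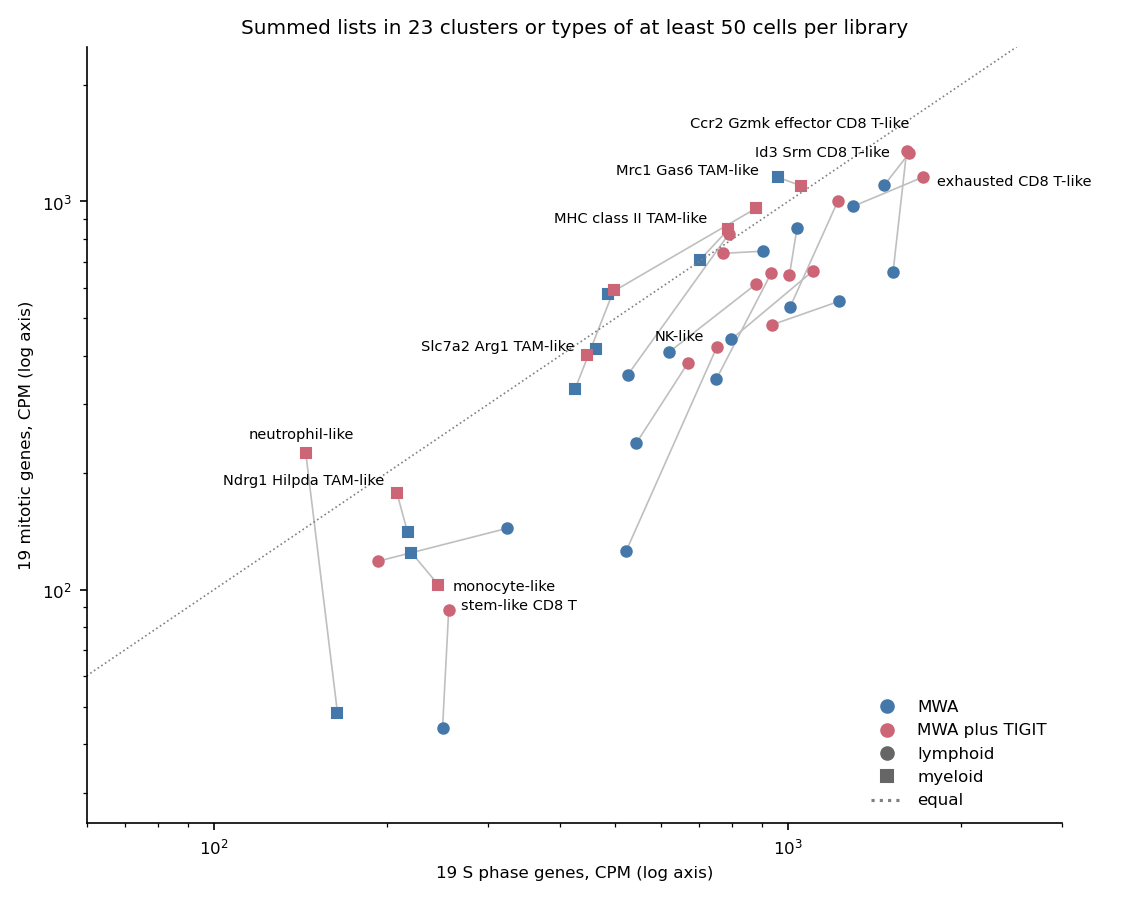
Summed S phase list (horizontal, CPM, log axis) against summed mitotic list (vertical, CPM, log axis) in 23 clusters or types with at least 50 cells per library; circles are lymphoid and squares myeloid or mixed, blue is MWA and red MWA plus TIGIT, gray lines join the libraries and the dotted line marks equal levels. In 17 of 23 the mitotic list lies below the S phase list in both libraries, and in 3 it lies above in both, including Mrc1 Gas6 TAM-like cells at 1155 and 1098 CPM.

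Over these 23 clusters or types and both libraries (46 points, which share libraries and differ in depth), the log2 levels of the lists had a Pearson correlation of 0.88. The genes outside all lists whose log2 level followed the summed mitotic list most closely, among 5323 genes, were Hist1h2ab, Tmpo, Hist1h3f, Hist1h3c, Hist1h2ae, Hist1h2bb, Ezh2, Hist1h1b, Hist1h2bn and Dek. Their correlations were between 0.80 and 0.90.

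The comparison of the libraries asked whether adding TIGIT blockade to ablation went with more transcripts of dividing cells in the distant tumor. In CD8 T-like cells the median log2 ratio of all genes (MWA plus TIGIT over MWA) was 0.14, so values are to be read against that shift. The S phase list, at a log2 ratio of 0.12 (95% exact conditional binomial interval 0.09 to 0.16), lay at this median, and the mitotic list, at 0.33 (0.28 to 0.37), lay above it. At 1.5-fold, 3 of 39 members were higher in the MWA plus TIGIT group, against 3.98% of 9390 genes, and 0 were lower, against 1.45%. All 19 mitotic members had ratios above 0, with a median of 0.34, and 16 of 19 S phase members did, with a median of 0.15. With the median of all genes at 0.14, most genes had ratios above 0 too, and their share was not counted. The distance between the lists shrank when cell cycle genes were left in the clustering, where the ratios were 0.07 for the S phase and 0.12 for the mitotic list.

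The 3 members past the fold were Cdc20, Aurka and Cenpe. With so few of the 39 members passing, beside 3.98% of all genes, no shared function is read from them. Cdc20 had 60 UMIs (7.49 CPM) in the MWA and 129 UMIs (15.0 CPM) in the MWA plus TIGIT library, which gave a log2 ratio of 1.00 (0.55 to 1.46). Aurka, a kinase of spindle poles, had 46 and 81 UMIs, with a log2 ratio of 0.71 (0.17 to 1.26). Cenpe, the kinetochore motor, had 192 and 313 UMIs, with 0.60 (0.34 to 0.87). Mki67, the gene of the proliferation antigen Ki-67, was at 104 and 145 CPM and stayed under the fold at a log2 ratio of 0.48. Other mitotic genes with many UMIs differed less: Top2a was at 166 and 211 CPM (0.35), Birc5, survivin, at 102 and 116 CPM (0.19) and Cenpa at 67.1 and 80.9 CPM (0.27).

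S phase members of CD8 T-like cells had ratios on both sides of 0. Mcm2, Mcm3, Mcm4 and Mcm5 had log2 ratios between 0.37 and 0.39, while Mcm6 was at 89.9 and 93.4 CPM (0.05, -0.09 to 0.20). The lowest ratios were those of Ccne2 (-0.12, 114 and 113 UMIs), Tyms (-0.09, 555 and 562 UMIs) and Dut (-0.03), all with intervals that include 0. Cdt1 was at 20.6 and 25.8 CPM (0.32) and Pcna at 135 and 142 CPM (0.07). Stmn1, at 306 and 334 CPM, had a ratio of 0.13, at the median of all genes.

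In conventional CD4 T-like cells the gap between the libraries was wider and again larger for mitotic genes. The S phase list was at 887 and 1100.4 CPM (log2 ratio 0.31, 0.24 to 0.38) and the mitotic list at 448 CPM (1810 UMIs) and 855 CPM (3128 UMIs), a ratio of 0.93 (0.85 to 1.02), where the median of all genes was 0.14. Of the 36 members with at least 50 UMIs over both libraries, 16 were at least 1.5-fold higher, against 5.97% of 7794 genes, and 0 lower, against 1.08%. Of the 16, 14 were mitotic and the others were Rrm2 and Ccne2. Ccnb1 (14 and 22 UMIs), Plk1 (11 and 35 UMIs) and Aurka (15 and 27 UMIs) had too few UMIs to be counted.

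Among the members counted, the highest ratios were those of Cenpe and Hmmr. Cenpe was at 12.1 CPM (49 UMIs) and 40.8 CPM (149 UMIs), a log2 ratio of 1.75 (1.27 to 2.24), and Hmmr at 8.42 and 26.5 CPM, a ratio of 1.66. Top2a was at 103 and 198 CPM (0.95), Mki67 at 62.4 and 112 CPM (0.85) and Birc5 at 50.2 and 81.2 CPM (0.69). Replication genes were closer: Dut was at 160.4 and 168 CPM (0.07), Pcna at 115 and 136 CPM (0.24) and Mcm6 at 56.2 and 70.5 CPM (0.33). Both CD4 clusters showed the gap, with mitotic ratios of 0.91 in the Ramp3 S1pr1 cluster and 0.90 in the Ifitm3 Hk2 cluster. With cell cycle genes left in the clustering, conventional CD4 T-like cells numbered 934 and 787, the mitotic ratio was 0.18 and 2 members passed. In the clustering without these genes, 5.97% of all genes were at least 1.5-fold higher. The share with them left in is not given here.

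Regulatory T-like cells had a lower S phase list in the MWA plus TIGIT group. Their S phase list was at 904 CPM (1896 UMIs) and 772 CPM (1550 UMIs), a log2 ratio of -0.23 (-0.33 to -0.13), and their mitotic list at 745 and 735 CPM (-0.02, -0.12 to 0.08), beside a median of 0.06 for all genes. The S phase ratio was -0.047 without cells over 5000 UMIs and -0.095 as a mean over cells. Of 31 members with enough UMIs, 4 were at least 1.5-fold lower, against 2.58% of 6668 genes, and 0 higher, against 4.18%. The 4 were Uhrf1, which reads newly copied DNA for methylation (47 and 23 UMIs), Mcm2 (37 and 21 UMIs), Mcm3 (80 and 51 UMIs) and Cdkn3, a CDK phosphatase (37 and 23 UMIs). At a fold of 2 none of them passed, and without cells over 5000 UMIs 1 of 10 members with enough UMIs was lower. The mitotic list depended on few cells: 10 cells held 43.9% and 57.5% of its UMIs, and without the 10 cells richest in members its ratio was -0.46.

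In TAM-like cells the libraries were close. The S phase list was at 637 and 674 CPM (0.08, 0.06 to 0.11) and the mitotic list at 671 and 692 CPM (0.05, 0.02 to 0.07), where the median of all genes was 0.05. None of the 39 members passed 1.5-fold, against 1.38% of 11603 genes higher and 1.43% lower. The highest ratios were those of Ccne2 (8.80 and 12.7 CPM, 0.53), Rrm2 (15.0 and 18.9 CPM, 0.33) and Lig1 (41.4 and 51.0 CPM, 0.30). The lowest were Cdkn3 (22.6 and 19.7 CPM, -0.20), Mcm2 (18.97 and 17.3 CPM, -0.13) and Ube2c (66.3 and 61.5 CPM, -0.11). This closeness held for cells of all depths together: without cells over 5000 UMIs, which leaves out most TAM-like cells, the mitotic ratio was 0.85 and 6 members passed. The share of all genes in that setting is not given here.

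Rare types gave wide but thinly based differences. NK-like cells (168 and 118) had a mitotic list of 108 UMIs (126 CPM) and 273 UMIs (421 CPM), a log2 ratio of 1.75 (1.42 to 2.08). In the MWA plus TIGIT group 10 of these cells held 82.8% of the mitotic UMIs. Of the 9 members with enough UMIs 6 were higher by 1.5-fold, against 6.94% of 3214 genes, and 0 were lower, against 2.68%. The minimum was summed over both libraries, so members could be counted mainly through the library where they were high. With so few cells these members are not separate support for the ratio of the list. Mki67, Top2a and Pclaf were among the 6. DC-like cells (149 and 110) were lower, with 512 and 194 mitotic UMIs (467 and 204 CPM) and a ratio of -1.19 (-1.44 to -0.95). Gamma-delta T-like cells were at 497 and 523 CPM.

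**Figure D4:**
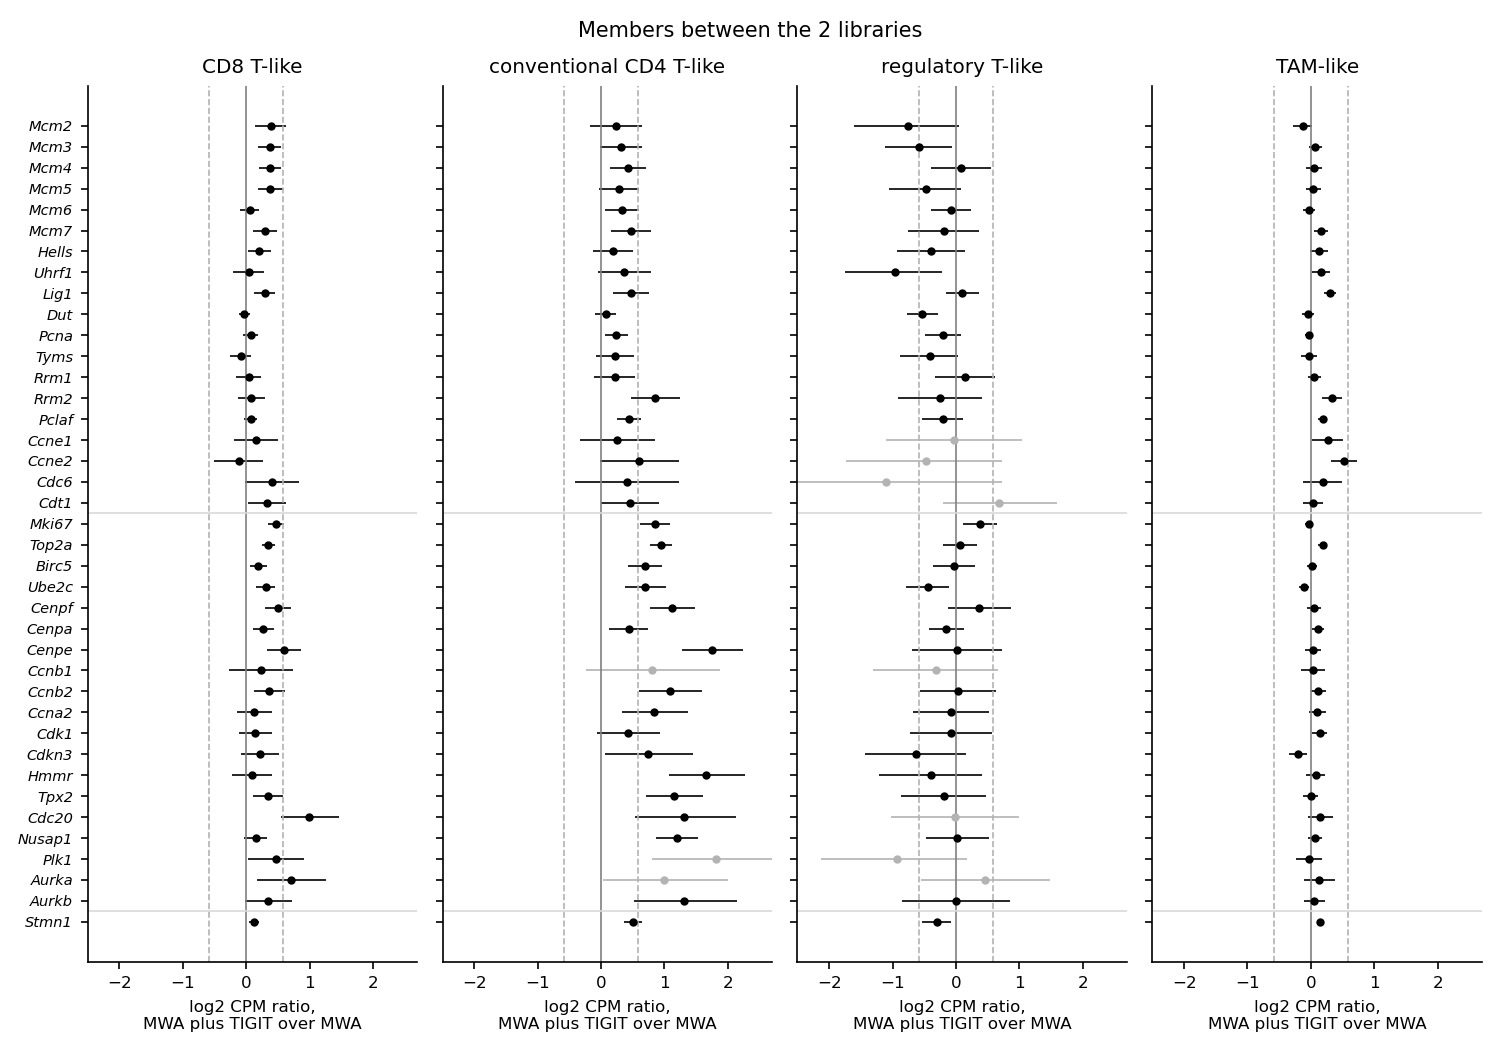
Log2 ratio of the CPM of each member (rows), MWA plus TIGIT over MWA, in CD8 T-like, conventional CD4 T-like, regulatory T-like and TAM-like cells; bars are 95% exact conditional binomial intervals, dashed lines mark 1.5-fold and gray points have under 50 UMIs. Mitotic members lie right of 0 in conventional CD4 T-like cells, up to 1.75 for Cenpe among those with at least 50 UMIs, and TAM-like points lie close to 0, from -0.20 to 0.53.

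The share of dividing cells and the UMIs within them were also counted separately. Cells with at least 12 mitotic UMIs were 154 of 1714 CD8 T-like cells (8.98%, 95% exact binomial interval 7.67 to 10.4) in the MWA group and 170 of 1873 (9.08%, 7.81 to 10.5) in the MWA plus TIGIT group. They held 83.9% and 88.5% of all mitotic UMIs of the type. The median of these cells was 30 and 36.5 mitotic UMIs, and their mitotic CPM was 4265 and 5557, while outside them it was 165 and 148 CPM. The share of such cells was thus close between the libraries, and in the MWA plus TIGIT group the mitotic CPM within them was higher. Without the 10 CD8 T-like cells of each library with the most member UMIs, the mitotic log2 ratio of the type was 0.22.

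In conventional CD4 T-like cells both quantities were higher in the MWA plus TIGIT group. Such cells were 38 of 1076 (3.53%, 2.51 to 4.82) and 48 of 881 (5.45%, 4.04 to 7.16), and the median within them was 29 and 47 mitotic UMIs. Intervals of the shares overlapped. Among TAM-like cells they were 413 of 3852 (10.7%) and 496 of 4008 (12.4%), with 38 and 42 mitotic UMIs at the median and 3782 and 3546 mitotic CPM within them. Cells rich in members were deeper than others of their type: CD8 T-like cells with at least 10 member UMIs had medians of 7709 and 6961 UMIs, and the others 3550 and 3431.5.

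To set depth aside, each cell was thinned to 1000 UMIs and cells with at least 2 UMIs of a list were counted. In CD8 T-like cells 20.2% of 1694 and 20.2% of 1852 cells held the S phase list, and 9.45% and 9.02% the mitotic list. The mitotic share was therefore no higher in the MWA plus TIGIT group, where the mitotic CPM was higher, and no order is read from it. TAM-like cells had 10.5% and 11.04% for the S phase and 9.21% and 10.2% for the mitotic list, so their S phase share was lower than that of CD8 T-like cells and the intervals of the mitotic shares overlapped. In conventional CD4 T-like cells the shares were 14.1% and 15.5%, and 4.67% and 6.44%. Before thinning, 51.3% and 51.5% of CD8 T-like and 51.6% and 57.8% of TAM-like cells had at least 2 S phase UMIs.

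Neutrophil-like cells gave the background of these shares: after thinning, 1 of 41 and 1 of 51 cells (2.44% and 1.96%) held the S phase list, and 0 of 41 and 1 of 51 the mitotic list. They were shallow, with medians of 921 and 1160 UMIs, so that 55 and 38 of them could not be thinned. The intervals of these S phase shares, 0.062 to 12.9% and 0.050 to 10.4%, are too wide to set the 3.12% and 2.54% of monocyte-like cells against them. By summed level the S phase list was at 221 and 246 CPM in monocyte-like and at 164 and 144 CPM in neutrophil-like cells, where the intervals overlapped in the MWA group and not in the MWA plus TIGIT group. NK-like cells had 1 of 168 (0.60%, up to 3.27) and 5 of 117 (4.27%, 1.40 to 9.69) cells with the mitotic list.

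**Figure D5:**
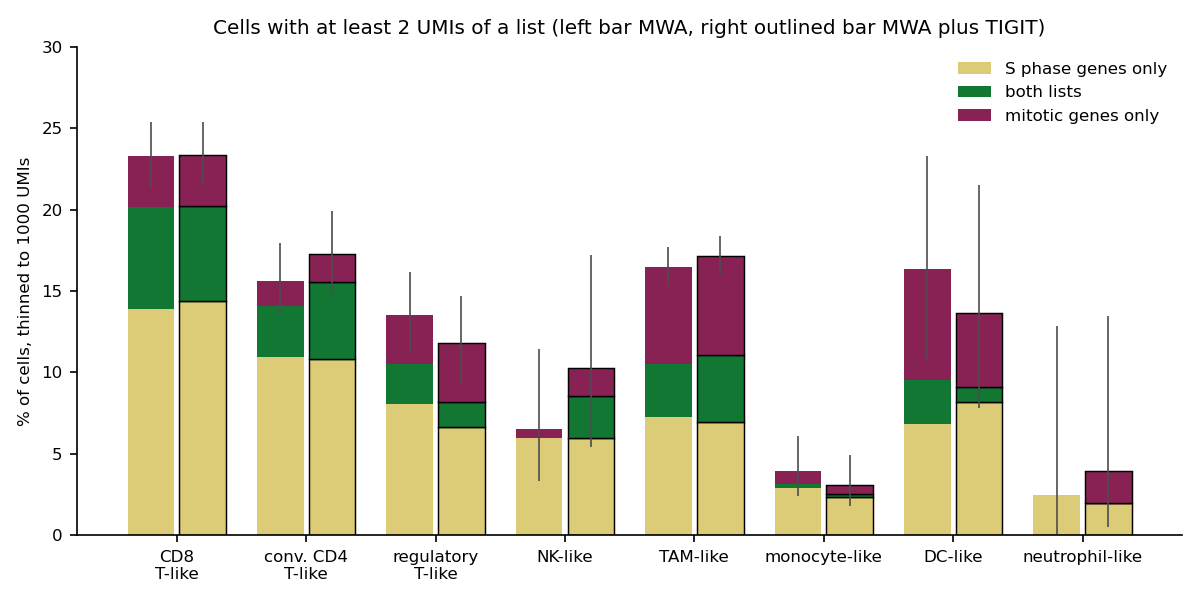
Share of cells (%, linear axis) with at least 2 UMIs of the S phase list alone, of both lists or of the mitotic list alone after thinning each cell to 1000 UMIs, by type, with MWA on the left and MWA plus TIGIT on the right of each pair; bars on top are 95% exact binomial intervals of the total. CD8 T-like totals are level at 23.3% and 23.4%, and neutrophil-like and monocyte-like cells are lowest.

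Other genes of the pathway, in lists that hold no member, were counted in the same way. In CD8 T-like cells 0 of 46 other replication genes passed 1.5-fold between the libraries, and of 59 other mitosis genes 6 were higher and 0 lower, beside the 3.98% and 1.45% of all genes. The 3 of these with the most UMIs were Cdc25b, a phosphatase that activates CDK1 (84 and 155 UMIs, log2 ratio 0.78), Kif22, a chromosome motor (71 and 121 UMIs, 0.66), and Cdca2 (60 and 103 UMIs, 0.67). In conventional CD4 T-like cells 29 of 44 other mitosis genes and 4 of 40 other replication genes were higher and 0 lower, beside 5.97% and 1.08% of all genes. In TAM-like cells 0 genes of these lists passed, beside 1.38% and 1.43%. Between CD8 T-like and TAM-like cells 18 of 46 other replication genes were at least 2-fold higher in both libraries, and of 59 other mitosis genes 5 were higher and 1 lower, beside 13.3% and 22% of all genes.

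The D cyclins, which start the cycle by activating CDK4 and CDK6, were divided between the types. Ccnd2 was at 251 and 324 CPM in CD8 T-like and 28.0 and 24.1 CPM in TAM-like cells. Ccnd3 was at 159 and 189.6 CPM against 40.5 and 41.2 CPM. Ccnd1 went the other way, at 207 and 199 CPM in TAM-like against 3.87 and 4.76 CPM in CD8 T-like cells. Between the libraries, CD8 T-like log2 ratios were 0.37 for Ccnd2 and 0.26 for Ccnd3. E2f2, a transcription factor of S phase genes, was at 85 and 142 UMIs there (0.63), the single one of 30 cell cycle regulators past 1.5-fold, a share below the 3.98% of all genes.

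CDK inhibitors, which hold the cycle back, were divided as well. Cdkn1a, which encodes p21 and responds to p53, was at 36.0 and 31.8 CPM in CD8 T-like and 181 and 168 CPM in TAM-like cells. Cdkn1b, encoding p27, was at 74.6 and 89.5 CPM against 27.3 and 34.0 CPM. Cdkn2a, whose products are p16 and p19ARF, was at 13.9 and 7.66 CPM in CD8 T-like cells (111 and 66 UMIs, log2 ratio -0.86, -1.32 to -0.40), and it was the one inhibitor of 5 counted that passed 1.5-fold, beside 1.45% of all genes lower. In TAM-like cells it was at 0.959 and 0.833 CPM (33 and 37 UMIs). Cdkn2d was at 43.8 and 61.9 CPM (0.50) in CD8 T-like and 29.1 and 34.4 CPM in TAM-like cells. Cdkn2c was at 10.6 and 11.8 CPM against 12.6 and 13.5 CPM. Cdkn2b was at 2.62 and 1.74 CPM (21 and 15 UMIs) in CD8 T-like and 1.74 and 1.46 CPM (60 and 65 UMIs) in TAM-like cells. Cdkn1c was at 0.375 and 0.232 CPM (3 and 2 UMIs) against 1.10 and 1.28 CPM (38 and 57 UMIs).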

How the data were processed

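The deposited files were 10x Genomics matrices of UMI counts per gene and cell barcode, 1 per library, which the authors made with Cell Ranger on mm10 (version 6.1.1 per the submitters' notes, 4.0.0 per the file headers) and did not normalize. Totals were 66152465 (MWA) and 78751205 (MWA plus TIGIT) UMIs. The members and gene lists were chosen with earlier results of these data known.

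Barcodes with fewer than 200 genes or more than 10% mitochondrial UMIs were dropped, and 806 and 786 barcodes that resembled simulated doublets (0.8% per 1000 cells) were left out. The methods of the study also name a removal of cells over 5000 UMIs, which was run as an alternative and not applied here, where most TAM-like cells lay above it. Cells were clustered with Seurat 5.3.0 after integration of the libraries along the methods of the study (2000 variable and 3000 integration features, 40 principal components, resolution 0.1, then 1 for lymphoid cells and 0.5 for CD8 T-like and myeloid cells), without 1023 features: members, gene lists, histone genes and genes whose level correlated with the members above 0.1. Clusters that fitted no marker list, 723 and 700 cells, stayed without a type. The rule that assigns markers to clusters and the state names were set after clusters were seen.

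UMIs were summed per type and library and divided by all UMIs of those cells (CPM). Genes with at least 50 UMIs in a comparison were counted as past a 1.5-fold (libraries) or 2-fold (types, in both libraries) difference. Intervals are 95%, exact Poisson for levels, exact conditional binomial for ratios and exact binomial for shares, and cover counting error only. Levels are compared between cells and not between genes. Full values are given for the member with the most UMIs of each role, the 3 highest and 3 lowest library ratios in CD8 T-like and TAM-like cells and members that depart from their list by over 2-fold between those types in both libraries. Scripts were tested on simulated data. Promoters came from RefSeq and gene annotation from GENCODE, which held all 39 gene identifiers, on 17 chromosomes. Python 3.11.15, scipy 1.17.1, R 4.3.3 and edgeR 4.0.16 (TMM alternative) were used.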

Additional observations from a re-analysis of the deposited data

Results flagged for a closer look

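Some library ratios went in opposite directions in different types, and the differences between the types were not tested because each group was 1 library. The S phase list had a log2 ratio (MWA plus TIGIT over MWA) of 0.31 in conventional CD4 T-like cells and -0.23 in regulatory T-like cells. The mitotic list had 0.93 in conventional CD4 T-like cells and -1.19 in DC-like cells, which numbered 149 and 110.

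Member UMIs were also found in barcodes that the comparisons left out. Called doublets held 1728 CPM of the members in the MWA and 1485 CPM in the MWA plus TIGIT library, beside 1547 and 1664 CPM in kept cells. Barcodes left out for mitochondrial UMIs or few genes held 1166 and 1243 CPM (198 and 369 UMIs).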

How the results depend on the processing

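No paired analysis was possible because each group was 1 library and no result came from a test. Over 32 results and 13 alternatives, 175 of 240 values stayed close to those reported, 59 moved and 6 changed sign. Counts of members in the alternatives, above and below, stand without the share of all genes in each alternative. The shares given above are those of the reported setting. Values below are log2 ratios of MWA plus TIGIT over MWA unless stated, M to S stands for the mitotic to S phase ratio (reported as 0.20 in CD8, 0.62 in conventional CD4, 0.21 in regulatory T-like and -0.036 in TAM-like cells), and causes were not tested. With cell cycle genes left in the clustering, CD8 T-like ratios were 0.070 (S phase), 0.12 (mitotic) and 0.047 (M to S), conventional CD4 0.21, 0.18 and -0.030, regulatory T-like -0.30 (mitotic) and -0.045 (M to S) and TAM-like 0.079 (mitotic). In that setting 1 member was higher between libraries in CD8 T-like cells and 2 in conventional CD4 T-like cells, and CD8 T-like exceeded TAM-like cells in 1 member and were lower in 25, and exceeded regulatory T-like cells in 0 and were lower in 1. Without cells over 5000 UMIs, the ratios were 0.23 (mitotic) and 0.10 (M to S) in CD8, 1.06 and 0.78 in conventional CD4, -0.047 (S phase), -0.13 (mitotic) and -0.087 (M to S) in regulatory T-like and 0.33, 0.85 and 0.52 in TAM-like cells. Members past the fold were then 7 higher in conventional CD4, 1 lower in regulatory T-like and 6 higher in TAM-like cells, CD8 T-like against regulatory T-like cells had 9 higher and 1 lower, and the thinned mitotic share of TAM-like cells differed by 4.53 percentage points (1.01 reported). With called doublets kept, mitotic and M to S ratios were 0.39 and 0.30 in CD8 and 0.83 and 0.51 in conventional CD4, and TAM-like ratios 0.044 (S phase) and 0.015 (mitotic). With types picked from marker UMIs of single cells, they were 0.80 and 0.46 in conventional CD4 and -0.46 and -0.20 in regulatory T-like, S phase and mitotic ratios in TAM-like were 0.052 and 0.0093, and 5 members were higher in CD8 than in regulatory T-like cells. TMM factors gave 0.014 (S phase) and 0.22 (mitotic) in CD8, 0.18 and 0.80 in conventional CD4 and 0.040 and 0.0043 in TAM-like cells. The mean over cells gave mitotic ratios of 0.24 in CD8, 0.80 in conventional CD4 and 0.090 in TAM-like and an S phase ratio of -0.095 in regulatory T-like cells. Leaving out the 10 cells of each type and library with the most member UMIs, an alternative chosen after seeing the data, gave 0.22 (mitotic) and 0.079 (M to S) in CD8 and -0.46 and -0.21 in regulatory T-like cells, where 7 members were lower. A fold of 2 left 0 members higher in CD8, 8 higher in conventional CD4 and 0 lower in regulatory T-like cells, and with no minimum of UMIs 1 was higher in regulatory T-like cells. Thinned to 2000 UMIs, the mitotic share in regulatory T-like cells differed by -2.72 points (-0.30 reported), and counting cells with at least 1 UMI, the S phase share in TAM-like cells by -0.85 (0.53 reported). Clustering at resolutions 0.6 and 0.3 moved none of the results. Depth limits rare members: Aurka, Cdc20 and Plk1 had under 130 UMIs per library in CD8 T-like cells.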
